A study of Mus musculus with 16 samples.

Results

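The repressive histone mark H3K27me3 was set against RNA level, gene by gene, in control Th0 cells. These are mouse CD4 T cells activated without polarising cytokines. The genes were those whose symbol stood in both the ChIP and the RNA count files, less those whose interval held no ChIP read in any of the 4 ChIP libraries. Of 22265 shared names, 1293 were left out on that ground, 1284 of them lying over another interval. The 20972 genes that remained came from 23420 genes in the RNA files and 22269 intervals in the ChIP files.

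H3K27me3 is written by Polycomb repressive complex 2, whose catalytic subunit is Ezh2 or its homologue Ezh1. In mammals the complex is drawn to CpG-rich promoters that are not transcribed, and the mark is found over the regulators of other lineages. In CD4 T cells it is known at the genes of helper fates that a cell has not taken, and Ezh2 is known to restrain effector cytokine genes.

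Ezh2-deleted cells were Ezh2 fl/fl.CD4Cre, labelled Ezh2-/-, with 2 ChIP libraries (10 and 9). Control cells were Ezh2 fl/fl without Cre, labelled wild type, with 2 ChIP libraries (33 and 7) and 3 RNA libraries (173, 176 and 177), so both genotypes carried the floxed allele. A Cd4-driven Cre acts from the thymic stages that express Cd4 and also in cells that later become CD8 T cells. All started as flow-sorted naive CD4 T cells, which were activated with plate-bound anti-CD3 (5 ug/ml), soluble anti-CD28 (1 ug/ml) and 50 U of IL-2, and harvested on day 4. The labels give biological replicates, and the ages and sexes of the animals are not given in the sources used here. ChIP and RNA libraries carry different numbers in the labels, and nothing there ties a ChIP library to an RNA library.

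The mark was measured as H3K27me3 density, the CPM of a gene interval in a ChIP library per kb of its length (CPM is the reads of a feature scaled to the library's counted reads). Intervals cover whole genes and sum to 1004863653 bp, so reads spread evenly over them would give a density of 0.995. With neither input nor spike-in at hand, density is a share of each library's reads and not an amount of mark. RNA level was the CPM of a gene per kb of its annotated length. Totals were 15103496 and 11133166 counted reads in the Ezh2-deleted ChIP libraries 10 and 9, 11124172 and 12433039 in the control ChIP libraries 33 and 7, and 24589438 to 26973319 in the control RNA libraries. A gene without RNA reads could hold up to 0.0386 CPM over the 3 libraries together (3 counts, counting error only). The T cell markers Cd3d, Cd3e, Cd3g, Cd4, Thy1 and Lck summed to 1610 to 1694 CPM per kb in the 3 RNA libraries. The 3 B cell markers summed to 8.39 to 14.8, Cd8a and Cd8b1 to 4.42 to 6.04, the 2 erythroid markers to 0.0249 to 0.218, the 4 myeloid markers to 0.0245 to 0.0396, and the 2 NK markers to 0 to 0.0261. The defining myeloid genes Lyz2 and Cd14 had no reads.

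The ChIP libraries differed on chromosome X, which bears on every result that rests on X-linked genes. Over the 294 X-linked genes at 1 CPM per kb and over, the median density was 0.878 and 0.646 in the Ezh2-deleted libraries 10 and 9, against 0.299 and 1.12 in the control libraries 33 and 7. On the autosomes, the 9195 genes at that level had medians of 0.891 and 0.836 in the Ezh2-deleted libraries, against 0.541 and 0.390 in the control libraries. Control 7 thus had its expressed X-linked genes at 2.88 times its expressed autosomal genes, while control 33 had them at 0.552 times. The 40 Y-linked intervals had medians of 0.154 and 0.496 in the Ezh2-deleted libraries 10 and 9, against 0.397 and 0.218 in the control libraries 33 and 7.

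**Figure D1:**
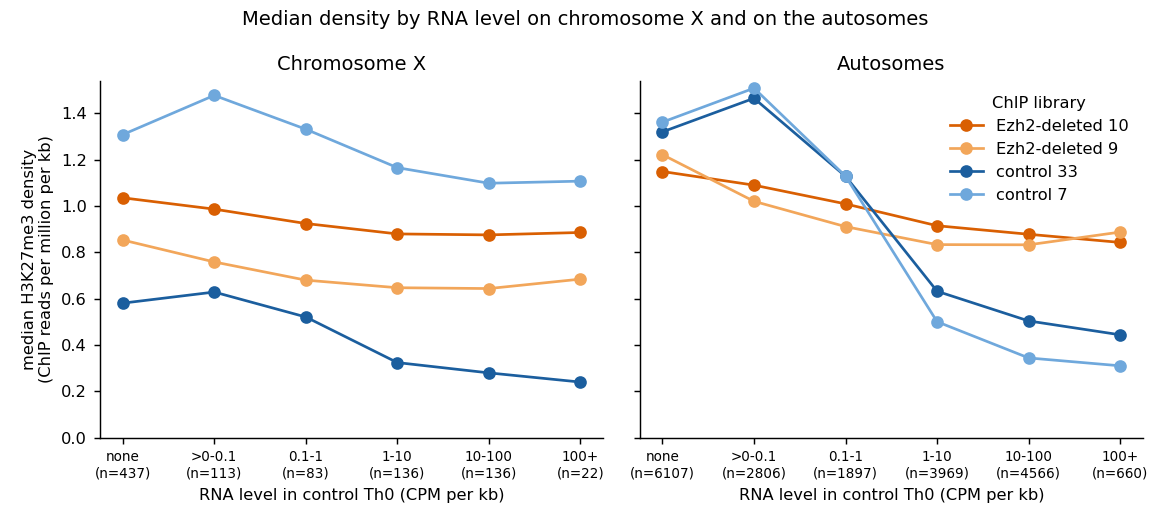
Median H3K27me3 density (ChIP CPM per kb) in 6 classes of RNA level, for X-linked genes on the left and autosomal genes on the right, with a line for each ChIP library and the number of genes under each class. On the autosomes both control lines drop between 0.1 and 10 CPM per kb, whereas on chromosome X control 7 stays above 1.0 at every RNA level and control 33 stays below 0.7.

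Of the 294 X-linked genes at 1 CPM per kb and over, 37 (12.6%) had a density under 0.5 in control 7, and 269 (91.5%) in control 33. On the autosomes 68.7% and 38.8% of the genes at that level were under 0.5 in control 7 and control 33. Kdm5c, a histone H3K4 demethylase, had 0.197 and 0.283 in control 33 and 7, Kdm6a, a demethylase of H3K27me3 itself, had 0.214 and 0.267, and the translation factor gene Eif2s3x had 0.227 and 0.266. The RNA helicase gene Ddx3x had 0.199 and 0.873, and Utp14a had 0.218 and 1.01. These 5 were picked after the values were seen, as genes known to escape X inactivation in mouse cells in general or in part, so their values are examples only, and Utp14a was near the X-linked median of 1.12 in control 7. In female cells the inactive X carries H3K27me3 over most of its genes. Whether the sex of the animals differed was not tested. Results are therefore given for each control library.

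H3K27me3 density was lower in classes of higher RNA level, and the step lay between 0.1 and 10 CPM per kb rather than at the boundary of detection. Genes without reads (6575, 31.4% of the total) had median densities of 1.27 in control 33 and 1.36 in control 7. Genes above 0 and up to 0.1 CPM per kb (2924) had the highest class medians, at 1.44 and 1.51. Among genes with CpG-rich promoters those without reads were higher than these, as given below. Genes at 0.1 to 1 (1980) had medians of 1.11 and 1.14. Those at 1 to 10 (4107) had 0.622 and 0.509, those at 10 to 100 (4704) had 0.4996 and 0.347, and those at 100 and over (682) had 0.439 and 0.315. Both control libraries gave the same order of classes, and control 7 had the wider range of densities. In these bulk cultures, a gene with both mark and RNA may hold them in different cells: fewer cells of a type and less RNA per cell cannot be told apart.

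The contrast between silent and expressed genes was smaller in both Ezh2-deleted libraries than in both control libraries. The median of genes without reads was 1.31 and 1.44 times that of genes at 10 CPM per kb and over in the Ezh2-deleted libraries 10 and 9, against 2.58 and 3.94 times in the control libraries 33 and 7. Genes without reads had medians of 1.14 and 1.20 in the Ezh2-deleted libraries, and genes at 100 and over had 0.843 and 0.882. The Ezh2-deleted medians lay near the even density in every class.

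**Figure D2:**
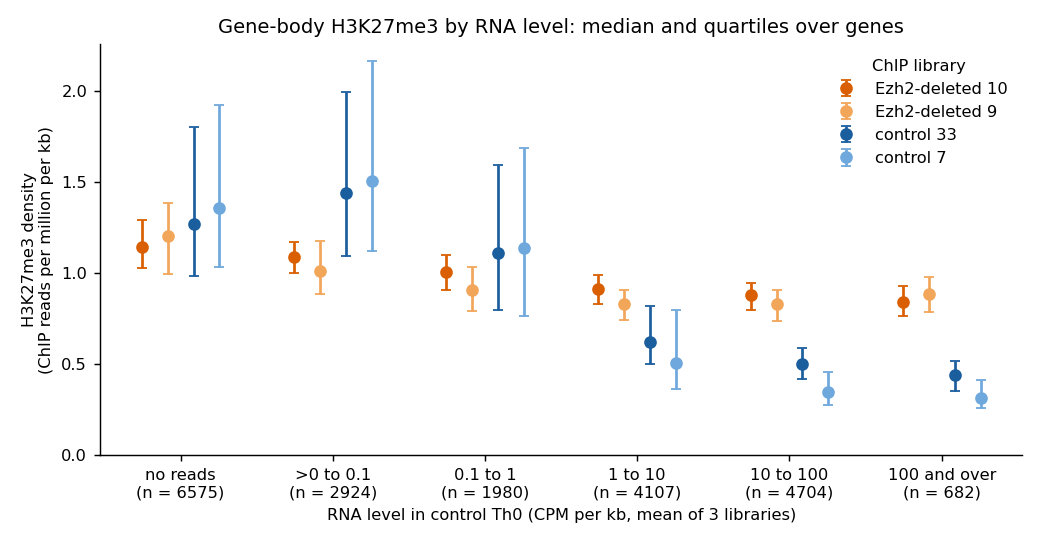
Median H3K27me3 density with the lower and upper quartiles over genes (ChIP CPM per kb) in 6 classes of RNA level in control Th0, for the Ezh2-deleted libraries 10 and 9 and the control libraries 33 and 7, with the number of genes under each class. The Ezh2-deleted medians stay between 0.828 and 1.20, and the control medians run from 1.51 at low RNA down to 0.315 at 100 CPM per kb and over.

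Across genes, density and RNA level had a Spearman rank correlation of -0.597 to -0.596 for Ezh2-deleted 10 and -0.532 to -0.530 for Ezh2-deleted 9, against -0.679 to -0.677 for control 33 and -0.711 to -0.709 for control 7, over the 3 RNA libraries. These correlations are over 20972 genes, which share libraries, depth and base composition, and they describe the tables. They can be set beside 0.648 between the Ezh2-deleted ChIP libraries, 0.879 between the control ChIP libraries and 0.982 between RNA libraries. On the autosomes alone they were -0.709 in control 33 and -0.725 in control 7, and on chromosome X -0.545 and -0.209. Within a class of RNA level the correlation was weaker. The correlation was -0.319 and -0.358 (control 33 and 7) among genes at 1 to 10 CPM per kb, -0.0401 and -0.0551 among genes up to 0.1, and -0.133 and 0.164 among genes at 100 and over.

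Exceptions at both ends were few. Of the 6107 autosomal genes without reads, 49 (0.802%) were at or under the median of genes at 10 CPM per kb and over in both control libraries, and 25 of the 49 overlapped another interval. Reads that fall in more than 1 interval are missing from these counts, which lowers density where intervals overlap. Of the 5226 autosomal genes at 10 CPM per kb and over, 48 (0.918%) were at or above the median of genes without reads in both.

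The tenth of genes with the highest mean control density, 2098 genes above 2.22, will be called strongly marked. Of these, 1735 reached that limit in both control libraries. Cldn26 (2.14 and 2.30 in control 33 and 7) was the gene just inside that limit and Gdf15 (1.82 and 2.63) the one just outside. Genes under 0.1 CPM per kb made up 82.9% of them (1740 genes), and 91 (4.34%) were at 1 CPM per kb and over. They were 16.8% of genes without reads, 21.6% of genes up to 0.1, 13.5% of genes at 0.1 to 1, 1.80% at 1 to 10, and 0.340% at 10 to 100. The only one at 100 and over was the predicted gene Gm6682, named here after its values were seen, with 6 and 10 reads in control 33 and 7 over an interval of 297 bp.

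Developmental transcription factors had the highest median densities of the 32 gene classes examined. Hox genes, which set position along the body axis, had median densities of 6.50 and 8.02 in control 33 and 7, and 27 of 31 were strongly marked. Hoxc12 had the highest mean of both libraries, at 6.99 and 11.7. Hoxa3 was the lowest, at 0.442 and 0.428, and its interval of 49981 bp overlaps others. Other homeobox genes had medians of 5.14 and 6.79 (87 of 95 strongly marked), with Gsx2, a forebrain patterning factor, at 9.36 and 11.7 and Lmx1a, whose interval is 159503 bp long, at 1.20 and 1.38. Developmental Sox, Fox, T-box, bHLH and GATA factors had 4.27 and 6.20 (62 of 79), and Wnt, Fgf, Bmp and Gdf ligands 1.82 and 2.36 (29 of 63). None of the Hox genes was at 1 CPM per kb or over.

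**Figure D3:**
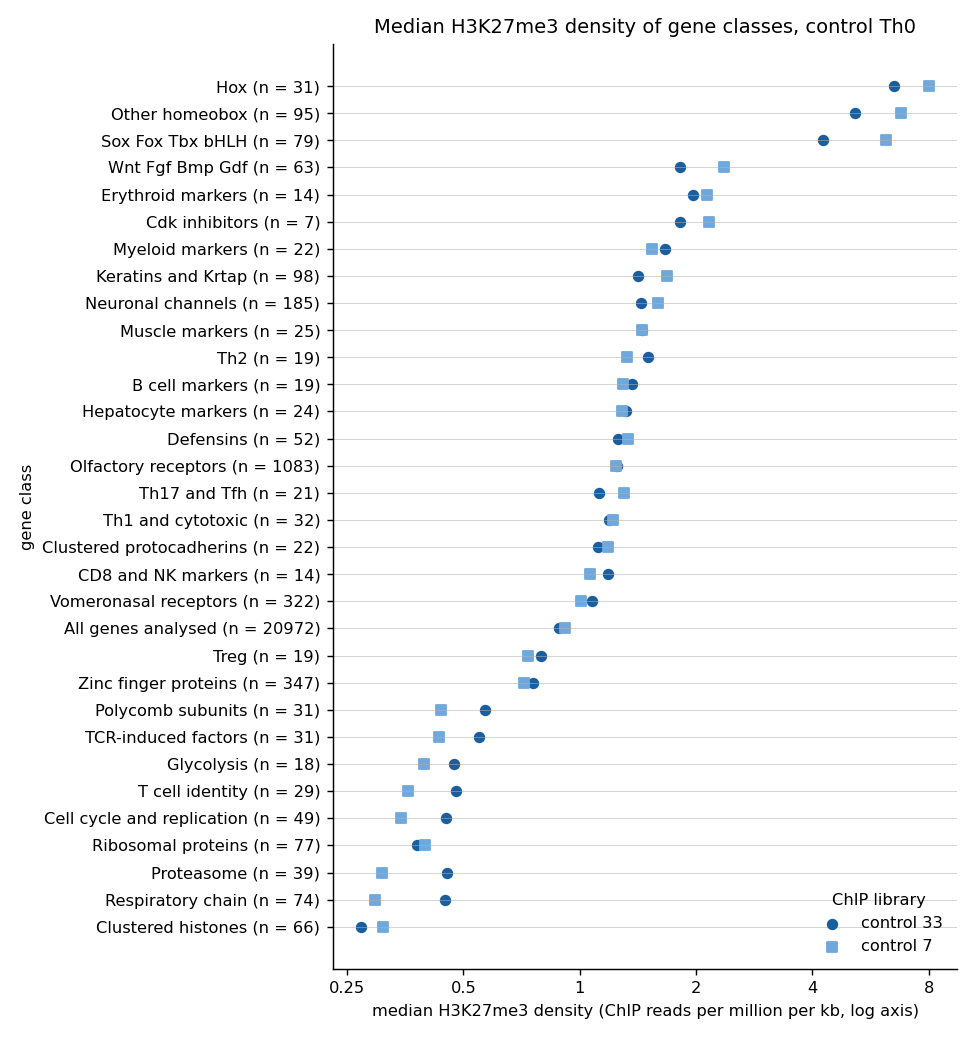
Median H3K27me3 density (ChIP CPM per kb, log axis) of 31 gene classes and of all genes analysed, in control 33 (circles) and control 7 (squares), with the number of genes in each class. Hox, homeobox and other developmental factors stand above 4 in both libraries, silent receptor families lie near 1, and housekeeping classes lie between 0.25 and 0.5.

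Silent gene families outside development had lower densities. Olfactory receptors, of which 1056 of 1083 had no reads, had medians of 1.25 and 1.24, with 72 (6.65%) strongly marked. Vomeronasal receptors had 1.08 and 1.01 (7 of 322), clustered protocadherins 1.12 and 1.18 (0 of 22), defensins 1.26 and 1.33 (8 of 52) and keratins with their associated proteins 1.42 and 1.68 (20 of 98). Of 58 clustered protocadherins only these 22 were among the genes analysed, so their values do not stand for the whole family. The receptor families thus lay near the even density, at or below the median of all genes without reads. Olfr94, on chromosome 17, was the most marked olfactory receptor, at 6.34 and 10.9. Neuronal receptors and ion channels were in between, at 1.44 and 1.60, and held both Kcnk4, a potassium channel gene at 6.05 and 6.92, and Kcnn4, the calcium-activated potassium channel of T cells, at 0.391 and 0.291 with 50.0 to 56.9 CPM per kb of RNA. MicroRNA genes had 1.89 and 2.21, but their intervals have a median of 84 bp, 227 of 665 had any ChIP read, and few reads stand behind each value.

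Housekeeping genes had low densities. Ribosomal protein genes had medians of 0.378 and 0.398, respiratory chain subunits 0.448 and 0.295, proteasome subunits 0.454 and 0.308, cell cycle and replication genes 0.451 and 0.345 and glycolytic enzymes 0.474 and 0.396. None of the ribosomal protein, proteasome, cell cycle and glycolysis genes was strongly marked. The cell cycle gene with the highest mean was the X-linked Pola1, the catalytic subunit of DNA polymerase alpha, at 0.324 and 1.37. Clustered histone genes had 0.272 and 0.309, the lowest class median in control 33 but not in control 7, with a median RNA level of 5.71 CPM per kb. Their intervals have a median of 532.5 bp, and 12 of 66 had reads enough for the test between genotypes, so few reads stand behind each value. Most of their transcripts lack the poly-A tails that the RNA library kit selects, and its part in their RNA level was not tested.

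Silent genes with CpG-rich promoters had higher densities than those with CpG-poor ones. Promoters (250 bases before to 50 after the start) were taken from RefSeq (GRCm38.p6). Of the genes, 15319 had a promoter under their symbol and 14208 had 1 within 1000 bp of the interval's start. They were called CpG-rich with an observed over expected CpG of at least 0.6 and GC of at least 0.55 (6441 genes), and CpG-poor below 0.4 (4975). The motif searched was CG, which reads the same on both strands. It was present in 95.1% of all 14208 promoters, with a median of 15 per promoter, 26 in CpG-rich and 3 in CpG-poor promoters. The 4 promoters below, with each CG in capitals, show the combinations met in these data. Hoxd13 is CpG-rich, silent and marked. Bmi1 is CpG-rich, expressed and marked. Id2 is CpG-rich, expressed and not marked. Il17a is CpG-poor, silent and marked above the median of silent genes.
Hoxd13, chr2:74667975-74668274, plus strand: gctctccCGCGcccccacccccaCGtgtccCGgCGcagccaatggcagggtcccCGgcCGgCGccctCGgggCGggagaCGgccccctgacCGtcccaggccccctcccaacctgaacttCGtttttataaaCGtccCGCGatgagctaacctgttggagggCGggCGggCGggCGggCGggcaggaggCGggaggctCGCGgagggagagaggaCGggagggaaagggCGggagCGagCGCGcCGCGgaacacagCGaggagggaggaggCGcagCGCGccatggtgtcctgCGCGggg
Bmi1, chr2:18676768-18677067, plus strand: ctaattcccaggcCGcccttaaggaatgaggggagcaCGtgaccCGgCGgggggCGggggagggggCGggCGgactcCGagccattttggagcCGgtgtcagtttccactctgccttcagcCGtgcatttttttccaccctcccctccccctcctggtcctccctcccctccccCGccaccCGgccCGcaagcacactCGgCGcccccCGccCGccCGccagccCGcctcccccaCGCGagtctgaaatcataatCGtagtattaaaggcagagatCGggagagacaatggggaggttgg
Id2, chr12:25096043-25096342, minus strand: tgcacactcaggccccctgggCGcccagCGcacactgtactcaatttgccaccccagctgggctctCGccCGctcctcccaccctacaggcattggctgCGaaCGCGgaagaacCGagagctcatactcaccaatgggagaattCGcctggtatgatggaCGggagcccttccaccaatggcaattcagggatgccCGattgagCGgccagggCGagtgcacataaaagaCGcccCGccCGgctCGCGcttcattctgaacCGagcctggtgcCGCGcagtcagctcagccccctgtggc
Il17a, chr1:20730655-20730954, plus strand: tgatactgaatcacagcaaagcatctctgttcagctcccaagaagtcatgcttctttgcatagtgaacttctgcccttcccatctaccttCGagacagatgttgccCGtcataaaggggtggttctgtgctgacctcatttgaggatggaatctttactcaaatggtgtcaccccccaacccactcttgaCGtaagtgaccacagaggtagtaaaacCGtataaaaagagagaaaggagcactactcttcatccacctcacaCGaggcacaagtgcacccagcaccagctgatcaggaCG

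They hold 37 (Hoxd13), 23 (Bmi1), 21 (Id2) and 6 (Il17a) CG. Hoxd13 had densities of 1.61 and 1.88 in the Ezh2-deleted libraries 10 and 9, against 6.50 and 8.43 in the control libraries 33 and 7, and no RNA reads in control 173, 176 or 177. Bmi1, a subunit of Polycomb complex 1, had 0.868 and 1.18 against 2.67 and 2.62, with 19.2, 20.5 and 21.1 CPM per kb of RNA. Id2, an inhibitor of bHLH factors, had 0.664 and 1.65 against 0.431 and 0.632, with 67.6, 73.7 and 73.7 CPM per kb. Il17a, the Th17 cytokine, had 1.27 and 1.48 against 2.43 and 2.31, with no RNA reads. Hoxd13, Bmi1 and Il17a were lower in both Ezh2-deleted libraries than in both control libraries. For Id2 both Ezh2-deleted values were above both control values, and library 9 stood apart from library 10.

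Among genes without reads, CpG-rich ones (565) had median densities of 1.59 and 1.78 in control 33 and 7, and 201 (35.6%) were strongly marked. CpG-poor ones (3153) had 1.24 and 1.28, and 327 (10.4%) were strongly marked. In the Ezh2-deleted libraries 10 and 9 the same genes had 1.14 and 1.21 when CpG-rich and 1.15 and 1.21 when CpG-poor. In control 33 and 7, CpG-rich genes above 0 and up to 0.1 CPM per kb (652) had 1.56 and 1.70, with 30.1% strongly marked. These were below the values of CpG-rich genes without reads. CpG-poor genes at that level (802) had 1.33 and 1.38, with 15.3% strongly marked, above CpG-poor genes without reads. The order of CpG-rich and CpG-poor genes turned from 0.1 to 100 CPM per kb. At 100 and over the control libraries differed, with 0.438 and 0.305 in control 33 and 7 for CpG-rich genes (334) and 0.414 and 0.411 for CpG-poor ones (43). At 1 to 10 CPM per kb, CpG-rich genes had 0.611 and 0.479 and CpG-poor ones 0.781 and 0.770 in control 33 and 7. That order also held in Ezh2-deleted 10 and 9, at 0.908 and 0.826 for CpG-rich and 0.954 and 0.882 for CpG-poor genes.

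The difference between promoter classes depended on the length of the gene, with lengths grouped after the values were seen. Among genes under 0.1 CPM per kb, CpG-rich ones of 2 to 5 kb (102) had medians of 3.89 and 5.38, and 82 of them were strongly marked, while CpG-poor ones (518) had 1.27 and 1.37. At 5 to 20 kb the medians were 2.24 and 2.57 for CpG-rich and 1.31 and 1.39 for CpG-poor genes. At 20 to 100 kb they were 1.61 and 1.75 against 1.23 and 1.23. Over 100 kb they were 1.16 and 1.24 against 1.08 and 1.14, close to the even density in both classes. Density is an average over the whole interval, and the position of reads within intervals was not analysed here. CpG-rich genes without reads were longer than CpG-poor ones, with median intervals of 35656 bp and 4298 bp.

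**Figure D4:**
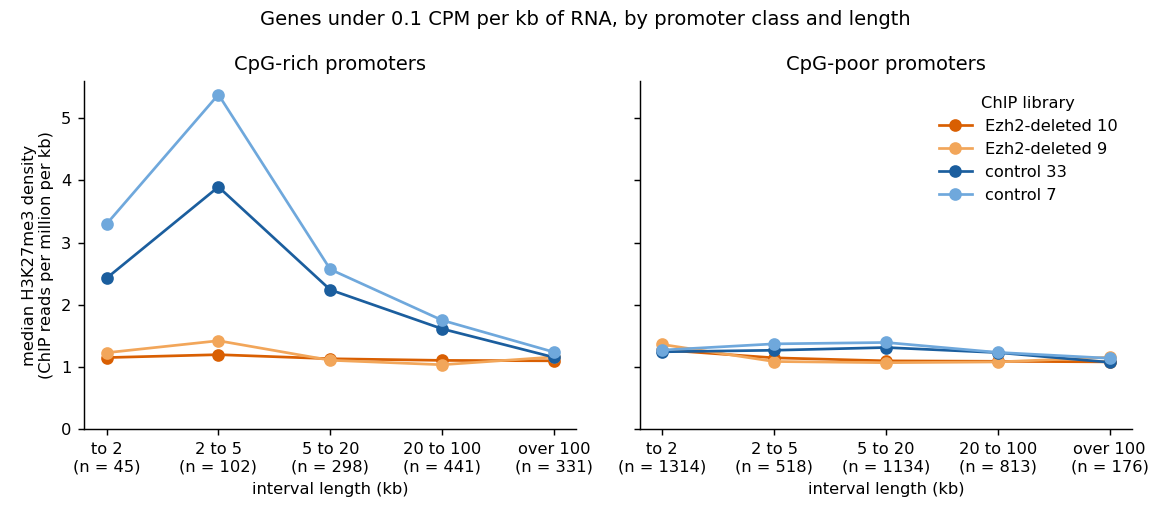
Median H3K27me3 density (ChIP CPM per kb) of genes under 0.1 CPM per kb of RNA by interval length, for CpG-rich promoters on the left and CpG-poor promoters on the right, with a line for each ChIP library and the number of genes under each length class. The control lines peak at 3.89 and 5.38 for CpG-rich genes of 2 to 5 kb, while all CpG-poor medians and all Ezh2-deleted medians lie between 1.04 and 1.42.

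Silent genes with an expressed neighbour had higher, not lower, median densities. Among CpG-poor genes without reads, those with 0, 1 and 2 adjacent genes at 1 CPM per kb and over (2339, 665 and 149 genes) had medians of 1.18, 1.45 and 1.43 in control 33 and of 1.21, 1.499 and 1.47 in control 7. The CpG-rich ones had 1.43, 1.74 and 1.82 in control 33 and 1.66, 1.91 and 2.00 in control 7. In the Ezh2-deleted library 10 the CpG-poor medians were 1.17, 1.12 and 1.06, and in library 9 they were 1.26, 1.09 and 0.999. Many of the CpG-poor genes with 0 such neighbours were olfactory or vomeronasal receptors or microRNAs. Without these families the CpG-poor medians (1308, 609 and 143 genes) were 1.17, 1.44 and 1.42 in control 33. In control 7 they were 1.26, 1.499 and 1.43. This split by neighbours was not among the planned results.

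Among T cell genes, densities were low at those of T cell identity and higher at those of other helper fates. These classes also differed in RNA level, with medians of 77.9 CPM per kb (T cell identity), 0.188 (Th2) and 0.158 (Th17 and follicular helper). In both control libraries, 11 of 29 T cell identity genes were above the median of their RNA class. The counts were 11 of 19 for Th2, 12 of 21 for Th17 and follicular helper, 9 of 19 for Treg and 8443 of 20972 for all genes. Genes of T cell identity and receptor signalling had medians of 0.478 and 0.359 in control 33 and 7, and none of 29 was strongly marked. Ptprc, which encodes CD45, had 0.452 and 0.240, and Zbtb7b, the CD4 lineage factor ThPOK, had 0.199 and 0.235 in an interval that overlaps another. Runx3, the factor that silences Cd4 in the CD8 lineage, had the highest mean of the class, at 1.16 and 1.96, with 38.6, 39.2 and 38.9 CPM per kb of RNA. Gata3 had 0.458 and 0.574, and Ccr7, a homing receptor of naive cells, had 0.372 and 0.229. The IL-2 receptor chain Il2ra had 0.403 and 0.391 with 561 to 597 CPM per kb, and Ctla4, an inhibitory receptor, had 0.795 and 0.653. Transcription factors induced through the T cell receptor had medians of 0.5495 and 0.431, among them Myc at 0.703 and 0.516. Fosb, an AP-1 subunit, had 2.95 and 2.94. Prdm1, which encodes the effector regulator Blimp-1, had 2.53 and 2.64 with 0.829 to 1.06 CPM per kb.

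Genes of the polarised T helper fates, which Th0 culture does not direct, had intermediate densities. Th2 genes had medians of 1.501 and 1.33 in control 33 and 7, and 5 of 19 were strongly marked, among them Il4 (2.20 and 2.95) and Il10 (2.66 and 3.43). Th17 and follicular helper genes had 1.12 and 1.299, with Ascl2 at 5.45 and 7.90 and Bcl6 at 0.601 and 0.598. Treg genes had 0.795 and 0.736, and none of 19 was strongly marked. Most of them were expressed in these cells, with a median of 14.7 CPM per kb of RNA and 16 of 19 at 1 or over. The interval of Foxp3, the Treg master factor, held no ChIP read in any library and was left out. Of the 1293 intervals left out so, 1284 overlapped another, where reads are dropped. The missing value therefore does not show an absence of mark at Foxp3. Among the Cdk inhibitors, which arrest the cell cycle, Cdkn2a had 5.68 and 6.85 and its neighbour on chromosome 4, Cdkn2b, had 6.92 and 7.80. Cdkn1a had 1.82 and 2.15 with 12.4 to 15.8 CPM per kb of RNA, where the median of genes at 10 to 100 CPM per kb was 0.4996 and 0.347.

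Most Th1 and cytotoxic genes lay above the median density of their RNA level. Of 32, 24 were above the median of their RNA class in both control libraries, against 8443 of all 20972 genes. This was not particular to them: the count was 28 of 31 for Hox, 16 of 22 for myeloid, 10 of 14 for erythroid and 17 of 25 for muscle genes. It was 10 of 24 for hepatocyte genes. Th1 and cytotoxic genes had median densities of 1.19 and 1.22, and 1 was strongly marked. That gene was Eomes, a T-box factor of killer and memory T cells, with 0.919 and 0.975 in the Ezh2-deleted libraries 10 and 9, against 2.95 and 5.29 in the control libraries 33 and 7, and with 3.78, 3.34 and 4.54 CPM per kb of RNA in control 173, 176 and 177. The granule protease gene Gzmb had 1.38 and 1.21 against 0.924 and 1.46, with 279, 176 and 183 CPM per kb, and its 2 groups of libraries overlapped. Gzma had 1.11 and 1.03 against 1.75 and 1.69, with 1.02 to 1.56 CPM per kb. Tbx21, the Th1 master factor, had 0.924 and 0.989 against 0.526 and 0.424, with 10.3 to 12.1 CPM per kb, so its control density was near the median of genes at that RNA level. Ifng had 0.697 and 0.871 against 1.00 and 0.581, with 0.236 to 0.696 CPM per kb, and its groups overlapped.

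**Figure D5:**
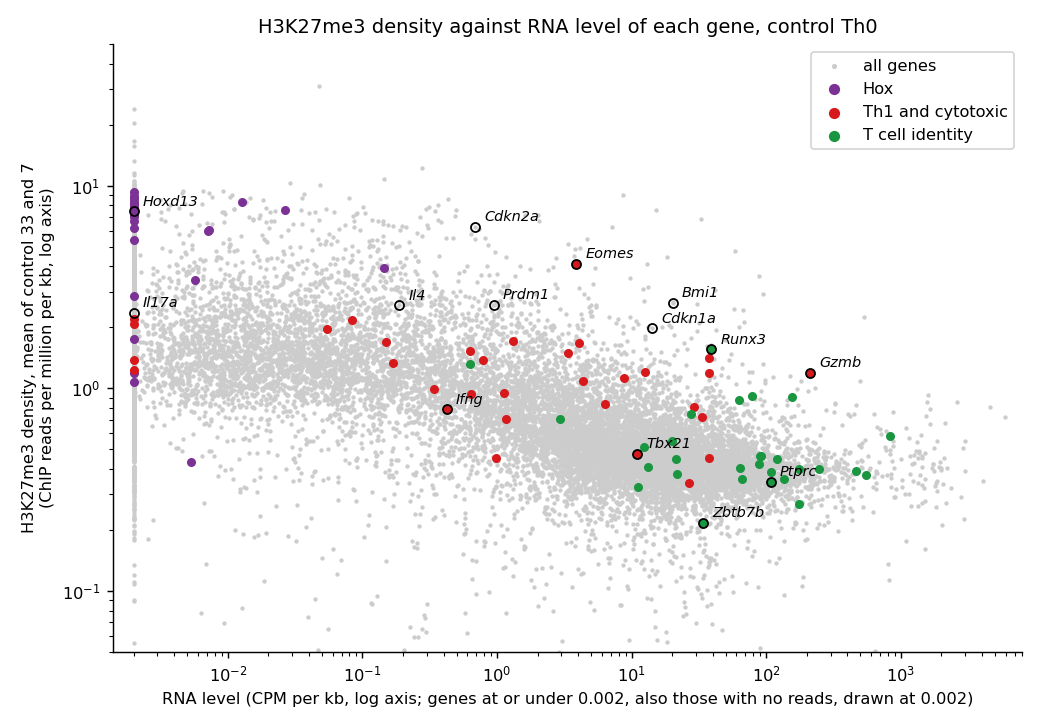
H3K27me3 density (mean of control 33 and 7, ChIP CPM per kb, log axis) against RNA level (mean of 3 control libraries, CPM per kb, log axis) for each gene, with Hox, Th1 and cytotoxic, and T cell identity genes coloured and 14 genes named. Genes at or under 0.002 CPM per kb are drawn at 0.002, and 55 genes with a density under the drawn range and 39 at 0 are not shown. Hox genes lie at the upper left, T cell identity genes at the lower right, and Eomes, Bmi1 and Cdkn1a lie above other genes of their RNA level.

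Genes of other blood lineages did not all carry the same density. Myeloid genes had medians of 1.67 and 1.54 in control 33 and 7 (8 of 22 strongly marked) and erythroid genes 1.96 and 2.13 (6 of 14), with Hba-a2, an alpha globin gene, at 5.66 and 5.36. B cell genes had 1.36 and 1.29 (1 of 19), the 1 being Pax5, the B lineage factor, at 2.40 and 3.12. Ebf1, another B lineage factor, had 1.51 and 1.58. The summed B cell marker level varied between the RNA libraries as given above, and its part in these values was not tested. CD8 and NK genes were lower, at 1.19 and 1.06 (0 of 14), and 3 of 14 were above the median of their RNA class in both libraries. Cd8a had 1.16 and 1.51.

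Of the 91 strongly marked genes at 1 CPM per kb and over, 12 overlapped another interval and 5 had under 20 reads in a control library. In 80 the mean density was lower in the Ezh2-deleted than in the control libraries, and in 11 it was not. Since these genes were chosen on control density, that count is a description. Those lower without Ezh2 included H2-Q1, a class Ib MHC gene, with 1.28 and 1.28 in the Ezh2-deleted libraries, against 4.02 and 5.52 in the control libraries, and with 56.7 to 60.8 CPM per kb of RNA. Ostm1, needed for lysosomal chloride transport, had 1.17 and 1.23 against 3.01 and 3.31, with 12.9 to 13.9 CPM per kb. Zfp580 (1.51 and 0.943 against 4.96 and 5.95) and H2-Q10 (1.302 and 1.45 against 4.56 and 5.79) led those at 1 to 10 CPM per kb with at least 100 reads in each control library. H2-Q1 and H2-Q10 belong to a family of near-identical genes, so reads may have been assigned among its copies with error.

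The 11 others included the genes with the highest mean density at 1 to 10 and at 10 to 100 CPM per kb among those with that many reads. Pisd-ps1, a pseudogene on chromosome 11, had 13.0 and 11.5 in the Ezh2-deleted libraries, against 7.67 and 7.51 in the control libraries. Sfi1 on the same chromosome had 12.3 and 13.7 against 9.12 and 8.97, and Drg1, whose interval overlaps that of Sfi1, a GTP-binding protein gene at 85.6 to 90.7 CPM per kb of RNA, had 4.47 and 5.18 against 3.56 and 3.57. Pisd-ps2 on chromosome 17 had 7.36 and 6.84 against 4.87 and 4.96. Chl1, a neural adhesion gene below this RNA range, with 0.0420 to 0.0574 CPM per kb, was the most marked gene of all by density, at 45.8 and 52.0 against 33.8 and 28.2. At these genes density was higher in both Ezh2-deleted libraries than in both control libraries, the opposite order to that of most strongly marked genes. The source of these reads was not tested.

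Cd4 stood apart between the control libraries. Its interval had densities of 2.65 and 2.56 in the Ezh2-deleted libraries 10 and 9, against 1.46 in control 33 and 0.359 in control 7. The ratio of control 33 to control 7, 4.07, was the highest of the 12211 autosomal intervals with at least 100 reads in control 33 and 200 in both together, whose median ratio was 1.06, and the next was Rel at 2.86. The adjacent genes had the following densities in control 33 and 7: Gpr162 had 1.94 and 2.37 and Lag3 0.465 and 0.3504. The Cre transgene of the Ezh2-deleted strain is driven by Cd4 regulatory sequence, and its part in these reads was not tested.

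Density in the Ezh2-deleted libraries was lower than in the control libraries mostly at silent genes and higher mostly at expressed ones. Of 20376 intervals tested (edgeR quasi-likelihood test on counts, library-size scaling, Benjamini-Hochberg adjusted p under 0.05, 2 libraries against 2), 20.6% were lower and 32.2% higher in Ezh2-deleted cells (4205 and 6570). Among genes without reads, 28.7% were lower and 2.89% higher, and among genes up to 0.1 CPM per kb 52.3% and 2.11%. At 0.1 to 1 the shares were 33.6% and 6.28%, at 1 to 10 5.40% and 49.8%, at 10 to 100 0.908% and 79.0%, and at 100 and over 0% and 81.0%. The share lower was thus largest just above the boundary of detection, where the median control density over all genes was highest, and the share higher grew with RNA level. Shares called also depend on reads per interval. Intervals of genes without reads had a median of 6808 bp, against 23619.5 bp for genes up to 0.1 CPM per kb. The part of length in these shares was not tested. The median log2 ratios of these 2 classes were -0.16 and -0.53. Higher here means a larger share of the library's reads, in libraries whose ranges were narrower. On the autosomes 21.3% of 19505 intervals were lower and 33.4% higher, and on chromosome X 5.54% of 849 were lower and 5.54% higher. The shares by RNA level are thus mostly those of autosomal genes.

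These calls need both Ezh2-deleted libraries, and they depend on which libraries give the spread within groups. With an Ezh2-deleted library left out, that spread comes from the control libraries alone. With a control library left out, it comes from the Ezh2-deleted libraries alone. Without Ezh2-deleted 10 or without Ezh2-deleted 9 no interval passed (the lowest adjusted p was 0.0565 and 0.0596 by the edgeR test), with 7223 and 7401 intervals at an unadjusted p under 0.05, and this includes every gene given with a p below. Id1 then had log2 ratios of -3.03 and -3.38, against -3.21 with all libraries. Without control 33 the calls were 5091 lower and 7557 higher, and without control 7 they were 4349 and 6292. The median log2 ratio over all intervals was 0.21 with library-size scaling, -0.02 with TMM scaling and 0.02 with DESeq2. Lower calls were 39.0% of all calls with library-size scaling, 53.5% with TMM and 56.1% with DESeq2. Under all 3 the median of each class up to 1 CPM per kb was below that of all intervals and the median of each class above it was over it.

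Gene classes differed in their calls, to be read against the 20.6% lower and 32.2% higher over all intervals. All 31 Hox genes, 91 of 95 other homeobox genes and 72 of 78 developmental Sox, Fox, T-box, bHLH and GATA factors were lower in Ezh2-deleted cells, with median log2 ratios of -2.18, -1.98 and -1.97. Of the signalling ligands 43 of 62 were lower and 1 higher. Olfactory receptors were lower in 53 and higher in 16 of 1078, 4.92% and 1.48% of them, and vomeronasal receptors in 8 and 7 of 316. Clustered protocadherins were called in 0 of 22 either way, these 22 being the ones analysed of 58. These silent sets thus had few calls. Their median log2 ratios were 0.11, 0.25 and 0.04. Erythroid genes were lower in 8 and higher in 1 of 14, myeloid genes in 11 and 1 of 21, muscle genes in 14 and 0 of 25, B cell genes in 8 and 0 of 19, and CD8 and NK genes in 0 and 0 of 14 (edgeR). Ribosomal protein genes were higher in 51 of 73, cell cycle genes in 44 of 49 and proteasome subunits in 34 of 39, with none lower. T cell identity genes were lower in 1 (Runx3) and higher in 21 of 29. Th1 and cytotoxic genes were lower in 7 and higher in 5 of 32, which is 21.9% and 15.6% of them, the share lower being near that over all intervals.

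Among intervals with at least 100 reads in each control library, the largest fall was at Id1, an inhibitor of bHLH factors, with densities of 1.03 and 1.32 in the Ezh2-deleted libraries, against 8.45 and 13.1 in the control libraries (log2 ratio -3.21, SE 0.34, edgeR adjusted p = 9.95e-05), and it was followed by Wnt1 (-2.90) and the Notch target Hes1 (-2.75). All 3 were under 1 CPM per kb of RNA in control cells. Among intervals with at least 100 reads in each Ezh2-deleted library, predicted genes aside, the largest rises included Ap2s1, a clathrin adaptor subunit (2.097), and Wdr82, whose interval overlaps another (1.78), both at 50 CPM per kb of RNA or over. These 5 were named for the size of their change. Ap2s1 had 0.955 and 0.924 in the Ezh2-deleted libraries, against 0.2395 and 0.1995 in the control libraries, so it stood near the even density without Ezh2.

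Among the genes listed for their known role, Pax6, a homeobox factor of eye and brain, had densities of 1.17 and 1.68 in the Ezh2-deleted libraries, against 6.12 and 7.28 in the control libraries. Its log2 ratio was -2.24 (SE 0.19, edgeR adjusted p = 5.32e-05), that of Hoxd13 -2.100 (SE 0.26, adjusted p = 0.000187), Eomes -2.12 (SE 0.30, adjusted p = 0.000407), Cdkn2a -1.97 (SE 0.18, adjusted p = 5.46e-05), Bmi1 -1.38 (SE 0.25, adjusted p = 0.00150) and Prdm1 -1.23 (SE 0.12, adjusted p = 6.99e-05). In the same edgeR test Gata6, an endoderm factor, had -0.96 (adjusted p = 0.00179), Il4 -1.33 (adjusted p = 0.00110), Il17a -0.79 (adjusted p = 0.0259) and Zbtb16, the factor of innate-like T cells, -0.77 (adjusted p = 0.000881). Runx3 had -0.68 (SE 0.23, edgeR adjusted p = 0.0283), and lost its call without control 7 (-0.25, adjusted p = 0.178). Cd8a (-0.62, edgeR adjusted p = 0.0798), Ifng (-0.01, adjusted p = 0.977), Gzmb (0.12, adjusted p = 0.784), Id2 (1.06, adjusted p = 0.0838), Id3 (0.54, adjusted p = 0.231), Bcl6 (0.40, adjusted p = 0.207) and Cd4 (1.52, adjusted p = 0.252) did not pass. Among expressed genes Tbx21 had 1.01 (SE 0.25, edgeR adjusted p = 0.00673), Il2ra 1.20 (SE 0.20, adjusted p = 0.00103), Ptprc 1.38 (adjusted p = 0.00704), Zbtb7b 1.34 (adjusted p = 0.00467) and Ezh2 0.91 (adjusted p = 0.00981). At Actb and Gapdh, commonly used as active controls, densities were 0.909 and 1.68 (Actb) and 0.631 and 1.15 (Gapdh) in the Ezh2-deleted libraries, against 0.420 and 0.685 and 0.273 and 0.505 in the control libraries, with log2 ratios of 1.19 (edgeR adjusted p = 0.0239) and 1.15 (adjusted p = 0.0331).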

How the data were processed

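H3K27me3 ChIP-seq and RNA-seq were analysed from the counts that the authors deposited. Per the submitters' processing notes, reads were trimmed with Trimmomatic 0.30, aligned to mm10 with Bowtie2 2.1.0 (ChIP) or TopHat2 2.0.6 (RNA) and counted with featureCounts 1.4.2. Per the file headers, ChIP counts are reads per whole-gene interval with no option for reads in several intervals, which are then dropped. ChIP-seq totals were 11124172 to 15103496 counts and control RNA totals 24589438 to 26973319.

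From these, CPM per kb, medians and Spearman correlations were computed (Python 3.11.15, pandas 2.3.3, numpy 2.4.6, scipy 1.17.1). Ezh2-deleted and control ChIP counts were compared with edgeR 4.0.16 (R 4.3.3; filterByExpr with a minimum count of 10; quasi-likelihood F-test; no covariates; adjusted p under 0.05), tested on simulated data first. The simulation used a single dispersion (0.0286) for all intervals and changed few of them, unlike these data, so it gives no error rate for the calls reported here. TMM, DESeq2 1.42.0, no filter, single libraries left out, other thresholds and autosomes alone were the alternatives. With 2 libraries a group, an exact permutation test cannot go below p = 0.333. The p-values set the difference between the groups against the spread between these libraries, which edgeR estimates partly from all intervals together.

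Genes named were the 4 of highest control density per RNA class (at least 100 reads in each control library), the highest and lowest of each gene class (at least 20), a list of genes of known role and the 3 largest called falls and rises; not all of them are reported here. Members and lists were chosen with earlier results of these data known. RNA of Ezh2-deleted cells and the other culture conditions were not used here, and Spi1 was not analysed here.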

Additional observations from a re-analysis of the deposited data

How the results depend on the processing

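The correlation of density with RNA level across genes, -0.715 with the mean of both control libraries, was -0.746 with at least 20 reads in each control library, -0.745 for intervals of 2 to 100 kb, and -0.718 to -0.671 with 1 library left out. The 91 strongly marked genes at 1 CPM per kb and over were 36 for the highest 5% of genes and 221 for the highest 20%. CpG-rich genes without reads had 1.33 times the median density of CpG-poor ones, and 1.44 times with classes by GC alone (at least 0.6 against under 0.5). With at least 20 reads the olfactory receptor median was 1.71 and that of ribosomal protein genes 0.438. Their intervals have medians of 957 bp and 3221 bp, and a floor on reads keeps short intervals only where density is high. A rise under that filter is thus built in and does not show more mark at these families. The olfactory receptor median was 1.24 to 1.25 with 1 library left out. With 1 ChIP library left out, 0 to 5091 intervals were lower and 0 to 7557 higher without Ezh2, 0 to 2130 genes without reads were lower and 0 to 4549 genes at 10 CPM per kb and over were higher. The counts of 0 are those without either Ezh2-deleted library (edgeR). DESeq2 called 3807 intervals higher, 2751 of them at genes at 10 CPM per kb and over, against 6570 and 4196. Of 84 values for 12 genes under 7 alternatives, 59 kept direction and call, 25 kept direction and lost the call, and 0 turned round. Of the 25, 24 were without an Ezh2-deleted library and the other was Runx3 without control 7. The causes were not tested. Leaving out chromosome X was chosen after seeing the data.

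No paired analysis was possible because the groups compared share fewer than 2 replicate numbers. Depth limits the 3231 genes with under 20 reads in a control ChIP library, short intervals above all. Density averages over whole genes, and overlapping intervals (3591 genes) have lost reads.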
